A study of Mus musculus with 2 samples.

Results

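The myelin and oligodendrocyte genes examined were Mbp, Mobp, Cldn11, Mal, Mag, Mog, Cnp, Olig1 and Olig2. These 9 genes were chosen by their names in the array files, every probe of each gene was taken, and Cnp was listed there under its older name Cnp1. They had 16 probes with 25 spots on each array, of 27671 gene names, 41174 probes and 43379 spots that were not controls. The brains came from female C57BL/6J mice that were 8 weeks old, on postpartum day 0. The 3 genotypes were a knockout of TDAG51 (TDAG51-/-, labelled KO), wild-type mice (TDAG51+/+, labelled WT) and knockout mice that also carried a TDAG51 transgene (labelled KO Tg). The transgene was driven by the brain-specific BAI1-AP4 promoter, which is active mainly in the cortex and hippocampus, so the KO Tg mice lacked TDAG51 in the same way as the KO mice outside the cells that use this promoter. The first array compared KO with WT and the second compared KO with KO Tg, and the KO sample was labelled with Cy3 on both arrays and the control sample with Cy5. The number of dams behind each sample was not given in the sources used here, nor whether the KO samples on both arrays were the same RNA.

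The targeted gene, listed as Phlda1, had a mean spot intensity of 350 in KO and 7283 in WT on the first array, a 17.3-fold lower level in KO. The array with KO Tg gave 44.1 in KO and 50.5 in KO Tg, neither of them marked by the scanner as well above background. The transgene was therefore not visible with this probe in the KO Tg sample. The paper reported transgene expression in brain tissue of its transgenic lines by RT-PCR and immunofluorescence. The KO intensity of this probe also differed between the arrays, as 350 on the first was marked as well above background and 44.1 on the second was not. Whether the transgene holds the sequence of this probe was not given in the sources used here.

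Oligodendrocytes are the glial cells of the central nervous system that wrap axons in myelin, a stack of membranes rich in lipid. A small set of proteins holds this stack together or faces the axon, and most of their genes are expressed at a high level in mature oligodendrocytes of the adult brain. Basic helix-loop-helix factors of the Olig family act early in the lineage and remain expressed in mature cells. White matter tracts and the brainstem are richer in myelin than the cortex, so the level of these transcripts in a piece of brain depends on which regions it holds. In samples of whole tissue, fewer oligodendrocytes and less RNA in each oligodendrocyte cannot be told apart.

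The 60-base probes of Mag, Mog and Mobp are shown because they gave, in that order, the highest ratio of KO over WT, the lowest ratio and the ratio nearest to no change among the probes of these genes. Each is printed 5′ to 3′ as in the scanner output, in lower case throughout, with its place on the mm7 build. The Mag probe lay on the minus strand at chr7:27846799-27846858, the Mog probe on the minus strand at chr17:35172002-35172061, and the Mobp probe on the plus strand at chr9:119863783-119863842. Whether these stretches are coding or untranslated was not determined, because no mm7 annotation was used.
Mag A_52_P375021: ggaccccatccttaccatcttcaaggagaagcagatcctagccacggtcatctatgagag
Mog A_52_P85040: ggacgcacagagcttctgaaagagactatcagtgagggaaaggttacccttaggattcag
Mobp A_51_P291224: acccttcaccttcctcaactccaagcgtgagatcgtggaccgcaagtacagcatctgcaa

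Each value below is either the mean intensity of a spot, in scanner units and before any correction, or the log2 ratio of KO over the control after background correction and normalization within the array. A log2 ratio above 0 means a higher level in KO. The raw intensities run higher in Cy5 than in Cy3 for bright spots, and the normalization takes this off. For this reason, several genes had a lower raw intensity in KO than in KO Tg and a ratio above 0. Each comparison was made on 1 array without a dye swap, so no spread between animals could be measured or tested, and the precision is limited by how few arrays there were. Repeated spots of a probe had an SD of 0.0629 in log2 ratio on the array with WT and 0.0650 on the array with KO Tg, over 245 probes with at least 5 spots, and this covers measurement error alone.

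**Figure D1:**
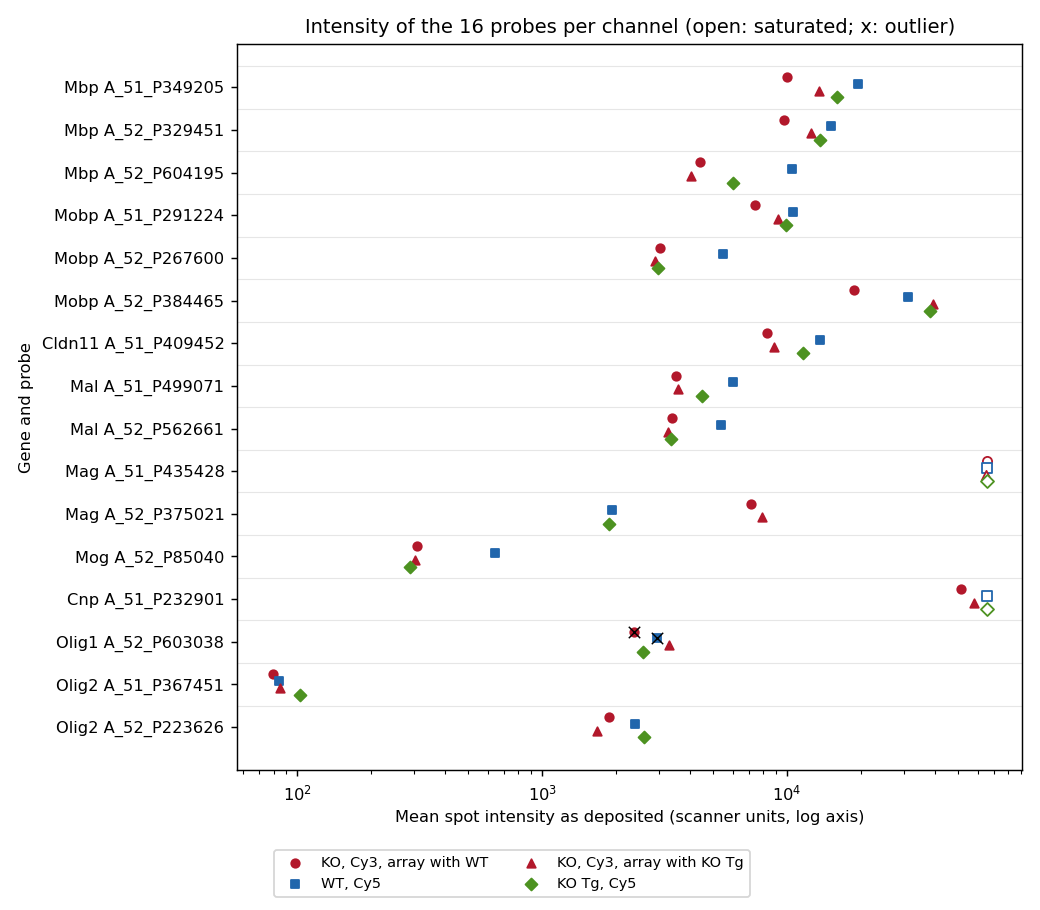
Mean spot intensity (x axis, scanner units, log scale) of each of the 16 probes (y axis) in the KO and WT channels of the first array and the KO and KO Tg channels of the second. Open symbols are saturated channels, and crosses mark the Olig1 spot that was left out of the ratios as an outlier; the second Mag probe stands out, with 7117 and 7870 in KO against 1922 in WT and 1868 in KO Tg.

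After loess normalization, most of these genes were lower in KO than in WT and higher in KO than in KO Tg, by small amounts, though 3 of them turned to lower than KO Tg when each array was only centred, and Mag alone was far higher in KO than in both. Each gene was read from the brightest of its probes that was free of saturation in every channel and well above background on both arrays, and 7 of the 9 genes had such a probe. Cnp had a saturated probe, and the Olig1 spot was marked as an outlier on the first array. The brighter probe of Mag was saturated as well, so Mag was read from its dimmer probe alone. Of the 7 genes, 1 (Mag) was at least 2-fold higher in KO than in WT, where 5.14% of all genes were, and 0 were at least 2-fold lower, where 4.54% of all genes were. The same gene was the only 1 of the 7 at least 2-fold higher in KO than in KO Tg, beside 4.89% of all genes, and 0 were at least 2-fold lower, beside 3.94%. In both comparisons at once, 2.82% of all genes were at least 2-fold higher in KO and 1.59% at least 2-fold lower. The median log2 ratio of the 7 genes was -0.23 against WT and 0.26 against KO Tg, while that of 22091 genes was 0.01 in each comparison.

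**Figure D2:**
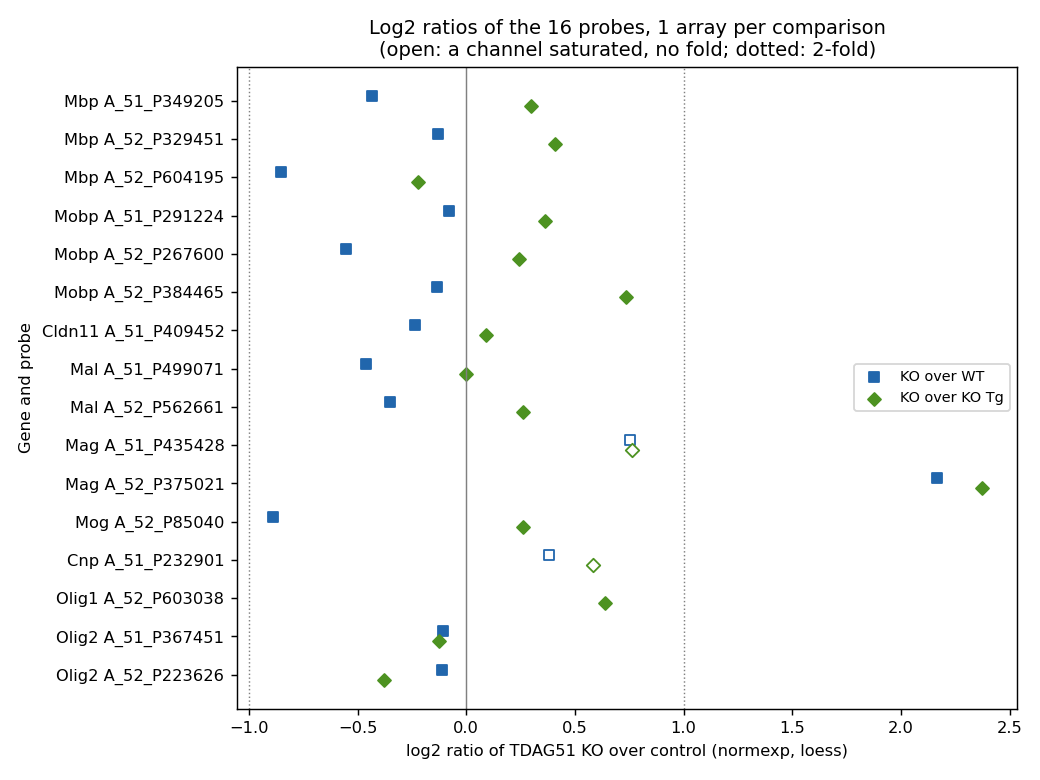
Log2 ratio of KO over WT and of KO over KO Tg (x axis) for each of the 16 probes (y axis), after normalization, with open symbols where a channel was saturated and no fold is given. Most probes lie to the left of 0 for WT and to the right for KO Tg, and only the unsaturated Mag probe, at 2.16 and 2.37, lies past the dotted lines at 2-fold.

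By the signs of both ratios alone, the order WT above KO above KO Tg was found for 5 of the 7 genes, and for 13.5% of all genes. Mal and Cldn11 are counted although they stood at only 0.00012 and 0.09 against KO Tg. Mobp is counted too, although its brightest probe was higher in KO Tg than in WT across arrays (log2 difference 0.26). By comparison, 6 of the 7 were below WT in KO, beside 49.3% of all genes, and 6 of the 7 were above KO Tg in KO, beside 51.2%. Counting probes, 12 of the 13 unsaturated probes were below WT, 10 were above KO Tg, and 9 were both. Without Mag, the log2 ratios of the other 12 ranged from -0.89 to -0.08 against WT and from -0.38 to 0.73 against KO Tg. Both comparisons share the KO genotype, so these counts are not independent of each other. The order also depended on the normalization, as it was found for 4 of the 7 genes by the scanner's own ratio and for 2 when each array was only centred on its median.

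Of the proteins of compact myelin, Mbp encodes myelin basic protein, which joins the inner faces of the membrane. Its brightest probe, A_51_P349205 (NM_010777), was printed in 10 spots. The mean intensity over the spots was 10007 in KO and 19445 in WT, and 13487 in KO and 15957 in KO Tg on the other array. Its log2 ratio was -0.43 ± 0.0451 (SD over 10 spots) against WT and 0.30 ± 0.0487 (SD over 10 spots) against KO Tg. All 10 spots were below 0 on the first array, from -0.51 to -0.35, and all 10 were above 0 on the second, from 0.21 to 0.39. The spots represent 1 hybridization on each array. The KO level of this probe itself stood 0.41 higher on the log2 scale on the second array than on the first, and KO Tg stood below WT by less (log2 difference -0.32). With each array only centred on its median, the ratio against KO Tg was -0.052. The intensities varied more from spot to spot than the ratios, from 6318 to 12154 in KO and from 11244 to 23810 in WT.

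**Figure D3:**
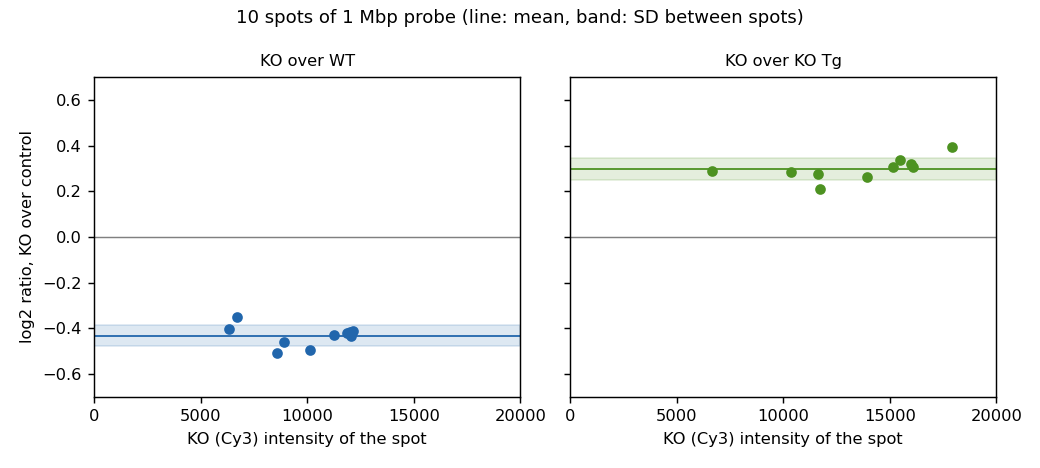
The 10 spots of the Mbp probe A_51_P349205 on each array, with the KO intensity of the spot in scanner units (x axis) and the log2 ratio of KO over the control (y axis). The line is the mean and the band its SD between spots, and the spots lie between -0.51 and -0.35 against WT and between 0.21 and 0.39 against KO Tg, without overlap.

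The other probes of Mbp, which lies on chromosome 18, showed that the size of the difference depended on the probe. A_52_P329451 (NM_010777) had intensities of 9712 in KO and 15036 in WT, and of 12524 in KO and 13616 in KO Tg. After normalization, the log2 ratio was -0.13 against WT and 0.41 against KO Tg. A_52_P604195, which was designed on another transcript (NM_001025245), had 4426 in KO and 10449 in WT, and 4061 in KO and 6036 in KO Tg. The log2 ratio of this probe was -0.85 against WT, a 1.80-fold lower level, and -0.22 against KO Tg. This probe was the only 1 of the 3 that was lower in KO than in KO Tg. Gaps of 14277 and 10184 bases of the genome separated the 3 probes, and which transcripts each of them reads was not determined.

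Mobp encodes myelin-associated oligodendrocyte basic protein, another small basic protein of compact myelin. Its probe at chr9:119863783-119863842, shown above, had intensities of 7373 in KO and 10553 in WT, and of 9176 in KO and 9888 in KO Tg. In log2 ratio, it stood at -0.08 against WT and 0.36 against KO Tg, so the levels in KO and WT were almost equal after loess. Against WT, the ratio was -0.37 with median centring and -0.52 with no normalization. The brightest probe, A_52_P384465 (AK083103, chr9:119877278-119877337, plus strand), had 18729 in KO and 31178 in WT, and 39561 in KO and 38357 in KO Tg. Its log2 ratio was -0.13 against WT and 0.73 against KO Tg, a 1.66-fold higher level in KO. The KO intensity itself was not stable here, as it stood 1.12 higher on the log2 scale on the second array than on the first once the arrays were put on 1 scale. Only 80 of 32708 probes differed by 2-fold or more between the KO channels. The probe at chr9:119871554-119871613 (A_52_P267600) had 3030 in KO and 5466 in WT, and 2878 in KO and 2958 in KO Tg. The log2 ratio of this probe was -0.55 against WT and 0.24 against KO Tg. All 3 probes of Mobp were thus below WT and above KO Tg, while the size of each difference was not shared by them.

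Cldn11 encodes claudin 11, the protein of the tight junctions between the layers of myelin. Its probe (A_51_P409452, NM_008770, chr3:30976006-30976065, plus strand) had intensities of 8297 in KO and 13599 in WT, and of 8841 in KO and 11593 in KO Tg. The log2 ratio was -0.23 against WT and 0.09 against KO Tg, the latter little more than the SD between spots.

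Mal encodes a membrane protein that takes part in the sorting of proteins to the myelin membrane. Its probe A_51_P499071 (NM_010762, chr2:127374083-127374110, minus strand) had 3509 in KO and 6018 in WT, and 3598 in KO and 4486 in KO Tg. In log2 ratio, it stood at -0.46 against WT, a 1.38-fold lower level, and 0.00012 against KO Tg, within the spread between spots. The second probe, A_52_P562661 (chr2:127374590-127374649, minus strand), had 3397 in KO and 5351 in WT, and 3277 in KO and 3346 in KO Tg. After normalization, the log2 ratio was -0.35 against WT and 0.26 against KO Tg. The KO intensities of both probes were close on the 2 arrays, and the control samples differed more.

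Of the proteins that face the axon or the outer surface of the sheath, Mag, myelin-associated glycoprotein, is a sialic acid-binding adhesion molecule of the innermost membrane. Its 2 probes did not give the same kind of value. A_51_P435428 (NM_010758, chr7:27838993-27839051, minus strand) was saturated in all 4 channels, with intensities of 65284 in KO and 65284 in WT, and of 65111 in KO and 65284 in KO Tg. A total of 50, 50, 40 and 51 pixels of these spots were saturated in the same order, and no fold can be given. The probe shown above, A_52_P375021, had 7117 in KO and 1922 in WT, and 7870 in KO and 1868 in KO Tg. In log2 ratio, it stood at 2.16 against WT and 2.37 against KO Tg, which are 4.48-fold and 5.17-fold higher levels in KO. The KO intensities of this probe were close on both arrays, with a difference of 0.14 on the log2 scale, and so were the control intensities, with KO Tg 0.06 below WT (log2 difference -0.06). A gap of 7747 bases separates the probes, and no other probe of Mag was there to show whether the change covered the whole transcript. Mag is also among the genes that the study listed from these same arrays, so the value is not independent evidence. Under the 6 settings of background correction and normalization, its log2 ratio ranged from 1.88 to 2.19 against WT and from 2.06 to 2.41 against KO Tg.

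Mog encodes myelin oligodendrocyte glycoprotein, which sits on the outermost surface of the sheath. Its probe, shown above (NM_010814), had 308 in KO and 642 in WT, and 302 in KO and 288 in KO Tg. The log2 ratio was -0.89 against WT, a 1.85-fold lower level, and 0.26 against KO Tg. This was the lowest log2 ratio against WT among the 7 genes, and the probe was faint in all 4 channels. It passed 2-fold under other settings, at -1.10 by the scanner's own ratio and by the deposited ratio, at -1.03 with no normalization, and also without the offset in the background correction. WT was the sample that stood apart, as KO Tg was 1.17 lower than WT on the log2 scale (log2 difference -1.17) when the control channels were put on 1 scale. A probe listed as B230317G11Rik, which RefSeq names Mog, had 409 in KO and 543 in WT, and 370 in KO and 337 in KO Tg. After normalization, the log2 ratio was -0.26 against WT and 0.34 against KO Tg, so the direction was shared and the size was not. Another such probe was near background on both arrays.

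Cnp encodes an enzyme of noncompact myelin, the phosphodiesterase that is used as a marker of the lineage. Its probe (A_51_P232901, NM_009923, chr11:100690342-100690401, plus strand) had 51062 in KO and 57895 in KO on the first and second arrays. The WT and KO Tg channels were both at 65284 and were saturated, with 49 and 48 saturated pixels. No fold can be given, because the control channel was the dimmer one after normalization and its true level is not known.

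Of the transcription factors, Olig1 and Olig2 specify the lineage, and Olig1 also acts in the maturation of oligodendrocytes. Olig1 (A_52_P603038, NM_016968, chr16:91321455-91321514, plus strand) had 2361 in KO and 2945 in WT, and 3298 in KO and 2576 in KO Tg. Its spot was marked as an outlier on the first array. The log2 ratio against KO Tg was 0.64, a 1.55-fold higher level in KO. With the marked spot kept, the ratio against WT was -0.07.

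Olig2 had its brightest probe, A_52_P223626 (NM_016967, chr16:91278126-91278185, plus strand), at 1881 in KO and 2387 in WT, and at 1674 in KO and 2610 in KO Tg. The log2 ratio of this probe was -0.11 against WT and -0.38 against KO Tg. The second probe, A_51_P367451 (chr16:91276771-91276830), was dim, with 79.5 in KO and 84.2 in WT, and 85.4 in KO and 103 in KO Tg. Its log2 ratio was -0.11 against WT and -0.13 against KO Tg. Olig2 was thus the only one of the 7 genes that was lower in KO than in both controls by its brightest probe.

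Because the KO genotype was on both arrays, the channels could be set side by side between arrays after scaling. Over 32708 unsaturated probes, the log2 difference had a robust SD of 0.14 between the KO channels and 0.41 between the control channels, with 80 and 2361 probes at least 2-fold apart. For the 7 genes, the median difference between the KO channels was 0.06, and over their 13 probes it ranged from -0.17 to 1.12. The KO Tg level was below the WT level by a median of 0.27 (log2 difference -0.27), and 5 of the 7 genes were lower in KO Tg than in WT, beside 50.5% of all genes. Counting probes, 10 of the 13 were lower. Without Mag, these differences ranged from -1.17 for Mog to 0.26 for the brightest probe of Mobp. The levels in WT and KO Tg were never measured on the same array, so this is a description across arrays.

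**Figure D4:**
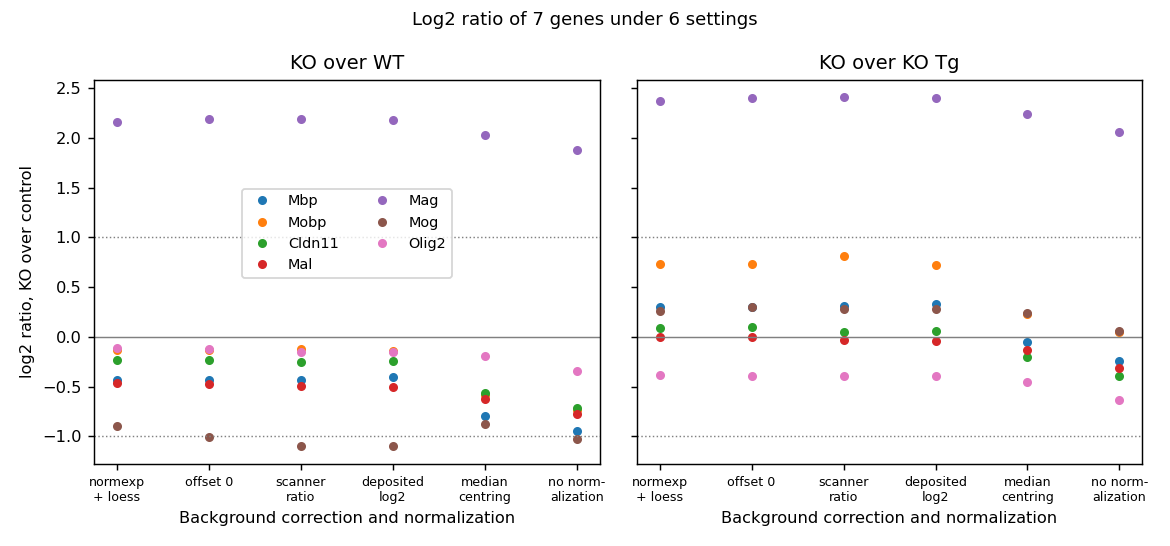
Log2 ratio of KO over WT and of KO over KO Tg (y axis) of the 7 genes under 6 settings of background correction and normalization (x axis), with dotted lines at 2-fold. Mag lies above 2-fold in every setting shown, while Mbp, Cldn11 and Mal lie above 0 against KO Tg after loess and below 0 after median centring or with no normalization.

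The rest of the lineage was described by lists of other genes. Of 14 other myelin proteins, 13 could be read. Their median log2 ratio was 0.28 against WT and 0.25 against KO Tg. These medians turned to -0.10 and -0.07 when each array was only centred, so no direction is given for this list. By the brightest unsaturated probe of each gene, 0 were at least 2-fold apart in either comparison. Some dimmer probes did pass 2-fold in either direction, with Pllp at -2.20 and -0.96 and Cntn2 at 1.54 and 1.28. The brightest probe of Pllp had 0.36 and 0.25. Ermn, the cytoskeletal protein ermin (listed as A330104H05Rik), had 0.54 and 0.99. Cntn2, an adhesion protein of the juxtaparanode, had 0.63 and 0.46. Tspan2, a tetraspanin of myelin, had 0.29 and 0.41, and Plekhb1 was saturated. Of the 13, 6 were below 0 against WT and 3 against KO Tg, with Nfasc, an adhesion protein of the node and paranode, at -0.54 and -0.24. The dimmer probes of Nfasc had 1.55 and 0.10, and -0.27 and -0.67, so its direction depended on the probe.

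Of 10 oligodendrocyte transcription factors, 8 could be read, with median log2 ratios of 0.36 against WT and 0.28 against KO Tg. St18, a zinc finger factor, was the only one at least 2-fold higher in KO in both comparisons. It had intensities of 6186 in KO and 1343 in WT, and of 6617 in KO and 1928 in KO Tg. After normalization, the log2 ratio was 2.45 against WT and 2.07 against KO Tg, or 5.47-fold and 4.21-fold, and its second probe gave 2.06 and 2.01. Zfp536, another zinc finger gene, had 0.66 and 1.12, and Nkx2-2, a homeobox factor of differentiating cells, had 0.77 and 0.33. A dimmer probe of Zfp536 had 0.52 and -0.22. Against KO Tg, 3 of the 8 were below 0, with Sox8 at -0.68, Tcf7l2 at -0.60 and Zeb2 at -0.27, and with no normalization the median of the list against KO Tg was -0.0028.

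The gap junction and receptor genes of oligodendrocytes had higher levels in KO than in both controls by their medians. All 7 that could be read, of 8, had log2 ratios above 0 in both comparisons, beside 50.7% and 51.2% of all genes, with medians of 0.55 against WT and 0.49 against KO Tg. This count was taken after loess alone, and Adamts4 is in it at 0.04 against KO Tg, within the spread between spots. The medians were also above 0 with centring (0.27 and 0.29) and with no normalization (0.12 and 0.11). Gjb1, which encodes a gap junction protein of the connexin family, had 4076 in KO and 940 in WT, and 4022 in KO and 887 in KO Tg. The log2 ratio of this probe was 2.32 against WT and 2.41 against KO Tg, or 5.00-fold and 5.31-fold. Erbb3, a neuregulin receptor, had 0.98 and 1.10. Its other probes well above background ranged from -0.22 to 1.38 against WT and from -0.20 to 0.55 against KO Tg. Lpar1, a receptor of lysophosphatidic acid (listed as Edg2), had 0.55 and 0.49.

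Genes for the lipids of myelin and for its metabolism had medians of 0.31 against WT and 0.38 against KO Tg over 12 genes, with 0 at least 2-fold apart. With centring, the medians were -0.02 and 0.21. Ugt8a, which makes the galactolipids of myelin, had log2 ratios of 0.79 and 0.63. Cers2, a ceramide synthase for very long chains (listed as Lass2), had 0.71 and 0.81, and Aspa, which breaks down N-acetylaspartate, had 0.70 and 0.59. A dimmer probe of Ugt8a had 0.31 and -0.72, so its direction against KO Tg depended on the probe. Of the 12 genes, 5 were below 0 against WT and 2 against KO Tg. Gsn, the actin-binding protein gelsolin, had -0.65 and -0.10, Qdpr, a pteridine reductase, had -0.44 and 0.14, and Gamt, an enzyme of creatine synthesis, had -0.28 and -0.45.

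Precursor genes had medians of -0.01 in each comparison over 10 genes, and 0 were at least 2-fold apart by their brightest unsaturated probes. Vcan had -0.05 and 0.07 by that probe, but a dimmer probe of it had 1.85 and 1.09. Gpr17, a receptor of cells that are starting to differentiate, had log2 ratios of -0.84 and -0.54, and a dimmer probe had -0.03 and 0.14. Ptprz1, a receptor phosphatase, had 0.26 and 0.34. Genes of peripheral myelin, which is made by Schwann cells, had medians of 0.17 and 0.23 over the 4 of 5 that could be read. Pmp22, a membrane protein of peripheral myelin, had 0.36 and 0.48. Egr2, a zinc finger factor of Schwann cells that cortical neurons also express, had -1.66 and -1.36, or 3.15-fold and 2.57-fold lower levels in KO.

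**Figure D5:**
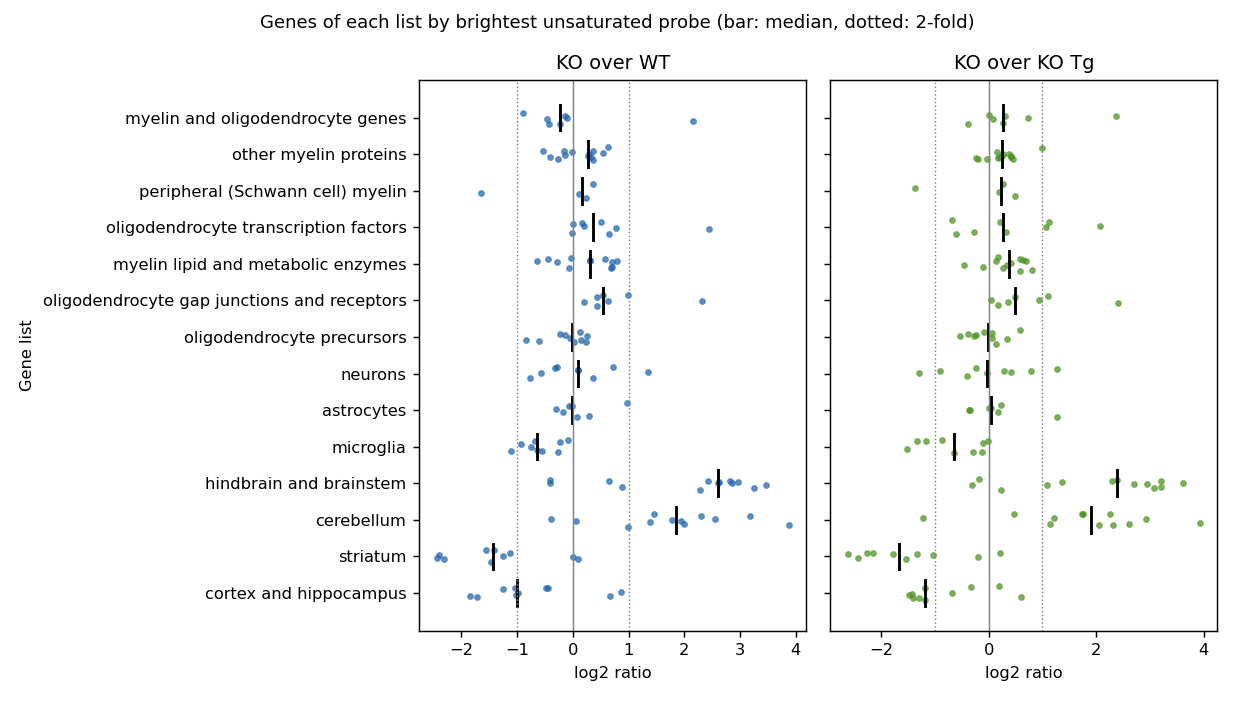
Log2 ratio of KO over WT and of KO over KO Tg (x axis) for the genes of each list (y axis), with the median of each list marked. The 7 myelin and oligodendrocyte genes that could be read lie within 2-fold of no change apart from Mag, while the medians of the hindbrain and cerebellum lists lie above 0 and those of the striatum and cortex lists below it in both comparisons, with single genes of each list on the other side of 0.

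Markers of brain regions had medians further from 0 than the myelin genes. Of 13 hindbrain and brainstem genes that could be read, 9 were at least 2-fold higher in KO than in WT and 10 than in KO Tg, with medians of 2.60 and 2.39. Slc6a5, a glycine transporter, was at 2.96 and 3.20, and Slc6a4, the serotonin transporter, was also among the highest. Of the 13, 2 were below 0 in both comparisons, Hoxc4 at -0.41 and -0.32 and Chat at -0.42 and -0.18. Of 12 cerebellar genes, 9 and 10 were at least 2-fold higher and 0 and 1 (Barhl2, at -1.21) at least 2-fold lower, with medians of 1.85 and 1.90, led by Gabra6 (3.87 and 3.93), Pcp2 and Cbln3. Of 10 striatal genes, 8 were at least 2-fold lower in KO in each comparison, with medians of -1.44 and -1.66, with Drd1 and Adora2a among the lowest. Drd2 was above 0, at 0.10 and 0.20, though its dimmer probe had -0.96 and -0.39. Of 10 genes of cortex and hippocampus, 5 and 6 were at least 2-fold lower, with medians of -0.9997 and -1.18, led by Emx2, Tbr1 and Rasgrf2. A dimmer probe of Emx2 had 0.03 and -0.55. Of the 10 genes, 2 were above 0 in both comparisons, Prox1 at 0.86 and 0.19 and Cux2 at 0.66 and 0.61. A dimmer probe of Cux2 had -0.82 and -0.82. Brain regions differ in their content of myelin, and the part of these regional differences in the values of the myelin genes was not tested.

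The cell type lists moved less, and their genes were present in the samples as they should be in brain, with 9 of 10 neuronal and 7 of 8 astrocyte genes read and the remaining one of each saturated. With centring alone, the medians of the precursor, peripheral myelin, neuronal and astrocyte lists all lay below 0. Neuronal genes had medians of 0.10 and -0.03 over 9 genes, with Nefh at 1.35 and 1.26, Syn1 at -0.77 and -0.90 and Syt1 at -0.57 and -1.29. The dimmer probes of Syn1 had 0.46 and 0.32, and -0.95 and 0.64, and were faint. The neuronal median against WT was the value of the brightest Snap25 probe (0.10 and 0.28). The other Snap25 probes had -0.76 and -0.85, and -0.76 and -0.82. Rbfox3 had 0.10 and -0.23 by its brightest probe and -0.60 and -0.56 by the other. The neuronal medians therefore depended on the probes taken. Astrocyte genes had medians of -0.01 and 0.04 over 7 genes, with Aqp4 at 0.96 and 1.28 and Aldoc at 0.29 and 0.18. Gfap, the intermediate filament of astrocytes, had -0.30 and -0.37 by its brightest probe, while its other probes had 0.0067 and 0.14, and 0.87 and 0.11. All 9 microglial genes were below 0 in both comparisons by their brightest probes, beside 49.3% of all genes against WT and 48.8% against KO Tg, with medians of -0.64 and -0.65. A faint second probe of Cx3cr1 had 0.28 and 0.41. Tmem119 had -0.93 and -1.33, C1qb had -0.75 and -0.86, and Aif1 had -0.69 and -0.65.

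The genes whose pair of log2 ratios lay nearest to the median pair of the 7 genes were Aamdc, Zhx3, Eif3l, Atic and Ppil4. Likeness was the distance between pairs over both comparisons, which ranged from 0.00459 for Aamdc to 0.0217 for Ppil4. A total of 158 of 16694 genes lay within 0.1 of the median pair.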

How the data were processed

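The 2 hybridizations were on 1 slide of Agilent 4x44K whole mouse genome arrays. Scanner files made with Agilent Feature Extraction 9.5.3.1 were deposited by the authors, with mean intensity and median background intensity for each spot, marks for saturation, outliers and signal well above background, and a log10 ratio of Cy5 over Cy3. The authors also deposited a log2 ratio for 35801 and 35717 probes, which correlated with the scanner's KO over control ratio at r = 0.982 and 0.984, and 5373 and 5457 probes had no value. No column of another sample was present (0).

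Here, spots marked as outliers (375 and 300) and control spots were left out. Background was corrected by normexp with an offset of 50, ratios were normalized by loess, and spots of a probe were averaged, in limma 3.58.1 (R 4.3.3, data.table, version 1.17.8). Levels were scaled between arrays by Aquantile. Summaries and plots used Python 3.11.15, numpy 2.4.6, pandas 2.3.3 and matplotlib 3.10.9. Background correction and loess alone were tested on simulated data, without saturated or outlier spots. The scaling between arrays, the filters and the choice of probes were not tested in this way. Median backgrounds were 44 (KO) and 39 (WT), then 42.5 (KO) and 39 (KO Tg), under median intensities of 338, 364, 336 and 385. The 2-fold threshold is that of the study.

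Names came from the files and, for the other lists, from a RefSeq table matched by accession (22944 probes), symbol (6664) or synonym (3108), with 8458 not matched. No coordinates of that table were used, and coordinates are the files' own, on mm7. The genes named were the 9 genes, Phlda1, the 3 genes of each other list with the largest change shared by both comparisons, oligodendrocyte genes past 2-fold in both, and the 5 genes with the nearest pattern. Single values of some genes under this rule are not reported here, while counts and medians of their lists include them. Saturated genes and genes named for lying on the other side of 0 from their list were chosen after their values were seen. The members and lists were chosen with earlier results of these data known. The alternatives were other background corrections, normalizations, probes and filters.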

Additional observations from a re-analysis of the deposited data

Results flagged for a closer look

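The log2 ratios of 5 genes had opposite signs in the comparisons with WT and with KO Tg, and the difference was not tested, as each rests on 1 array. These were -0.43 and 0.30 for Mbp, -0.13 and 0.73 for Mobp, -0.23 and 0.0912 for Cldn11, -0.46 and 0.00012 for Mal, and -0.89 and 0.26 for Mog. The signs of Mbp, Cldn11 and Mal against KO Tg turned with median centring or no normalization, and that of Mal also turned with the scanner's ratio and the deposited ratio.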

How the results depend on the processing

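The count of genes at least 2-fold higher in KO was 1 in each comparison under every alternative tried but one. With the brightest probe taken whether or not it was saturated, it was 0 of 8, because the saturated probe then stood for Mag. The median log2 ratio against WT was -0.58 with median centring and -0.74 with no normalization, and against KO Tg it was -0.052 and -0.24, where it was 0.26 after loess. The median of all genes was -0.07 and -0.08 with centring and -0.22 and -0.26 with no normalization, so the genes of interest shifted by more than all genes did. The order WT above KO above KO Tg was found for 4 of 7 genes with the deposited ratio and 2 with no normalization. Signs turned for 3 of 14 gene values with centring and 3 with no normalization, for 1 with the scanner's ratio and 1 with the deposited ratio, and for 0 under each of the other alternatives. Of the gene values recomputed, 105 moved by less than the spread between spots and 35 moved further. Keeping outlier spots, and setting levels across arrays after loess alone, were chosen after seeing the data. The latter gave a median difference of 0.09 between the KO channels and -0.23 between the control channels. No paired analysis was possible because each comparison had 1 array. No sample could be left out, and bright spots were limited by saturation.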
